A study of Homo sapiens with 6 samples.

Results

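The 37 genes encoded in human mitochondrial DNA, chosen as every row of the deposited table whose symbol starts with MT-, were followed in HCT116 cells, a line established from a colorectal carcinoma. They are 13 protein genes, 2 ribosomal RNAs (rRNAs) and 22 transfer RNAs (tRNAs), of 60643 genes in the table. All 6 libraries came from cells carrying shCAPG, a hairpin RNA against the actin-capping protein CAPG that doxycycline switches on; the sample descriptions name the construct shCAPG-2. Without doxycycline there were 3 libraries (genotype WT and untreated in the labels), and 3 came from cells kept with doxycycline at 100 ng/µl, as the labels write the unit, for 3 days (genotype CAPG Knockdown). The libraries analysed here include none with doxycycline and a hairpin against no gene, so an effect of doxycycline and an effect of losing CAPG cannot be told apart. The labels do not say whether replicates were separate cultures, so p-values measure the spread between these libraries only, which may be technical.

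Mitochondrial DNA is a small circle read from both strands into long precursor RNAs. The tRNAs lie between most of the other genes, and cutting them out of a precursor releases the rRNAs and messengers. The 13 messengers encode subunits of the oxidative phosphorylation complexes: 7 of complex I (NADH dehydrogenase), 1 of complex III (cytochrome b), 3 of complex IV (cytochrome c oxidase) and 2 of complex V (ATP synthase). They are translated on ribosomes inside mitochondria. Doxycycline is a tetracycline, a class of antibiotic that binds bacterial ribosomes and is also known to inhibit the mitochondrial ribosome. The labels give the CAPG knockdown as the purpose of the doxycycline.

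The genes are packed so closely that some messengers share bases, and near-identical copies of several members sit in the nuclear genome. Both limit how a short fragment can be assigned. The sequences below, from the GRCh38 genome with GENCODE 29 gene models, show the 2 longest overlaps between messengers, both on the plus strand of the mitochondrial genome (chromosome M), with the shared bases in capitals. MT-ATP8 and MT-ATP6 share 46 bases, 22.2% of MT-ATP8 and 6.75% of MT-ATP6, and the window is chrM:8507-8592. MT-ND4L and MT-ND4 share 7 bases, and the window is chrM:10730-10796. MT-ATP6 and MT-CO3 also share the base at their boundary, chrM:9207, which is not shown.
MT-ATP8 and MT-ATP6: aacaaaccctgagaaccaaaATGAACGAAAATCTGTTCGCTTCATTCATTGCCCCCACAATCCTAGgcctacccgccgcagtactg
MT-ND4L and MT-ND4: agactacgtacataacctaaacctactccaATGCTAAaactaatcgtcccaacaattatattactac

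The next 4 sequences set 2 members beside their copies on chromosome 1, with the differing bases in capitals. Each pair is shown in the 60-base stretch that holds the most differences, so the stretches are not typical. Over the aligned length, MT-ND2 and its copy differ at 17 of 1042 bases, and MT-ATP6 and its copy at 10 of 681. MT-ND2 (chrM:4899-4958) and MTND2P28 (chr1:630069-630128, plus strand) differ here by C435T, C445T, C471T and A489G, counted from the first base of MT-ND2, with the base of MT-ND2 written first. MT-ATP6 (chrM:8642-8701) and MTATP6P1 (chr1:633811-633870, plus strand) differ by C129T, A151C and A175G, counted in the same way from the first base of MT-ATP6.
MT-ND2: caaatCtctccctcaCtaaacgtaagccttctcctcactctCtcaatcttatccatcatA
MTND2P28: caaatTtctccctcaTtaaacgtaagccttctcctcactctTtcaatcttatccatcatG
MT-ATP6: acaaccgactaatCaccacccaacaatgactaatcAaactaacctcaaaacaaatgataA
MTATP6P1: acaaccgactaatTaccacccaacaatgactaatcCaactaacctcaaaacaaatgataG

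The values are FPKM (fragments scaled by transcript length and by library size). From the steps between the lowest values, the libraries held an estimated 17000000 to 21900000 fragments, replicate 3 without doxycycline being the shallowest. The hairpin's target was lower with doxycycline: CAPG stood at 57.2 ± 3.75 FPKM (SD, n = 3) without and 8.73 ± 1.08 (SD, n = 3) with it, a log2 change of -2.59 with a limma adjusted p of 7.24e-06. Of 7 epithelial markers, 6 were above 1 FPKM in every library, and VIL1 stayed between 0.0156 and 0.133 FPKM. COL1A1 lay between 7.49 and 10.9 FPKM, and the other 14 markers of fibroblasts, leukocytes and endothelium were below 1 FPKM in every library. Replicate 3 with doxycycline had the highest FPKM sum over all genes, 586911, against 521832 to 536037 in the others, and it was the highest library for 12 of the 15 members listed above 0.

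All 22 tRNAs were listed at 0 in every library, 14 of them on the plus strand and 8 on the minus strand. They are 59 to 75 bases long. The shortest single-exon gene above 0 in the table had 153 bases, and the 6586 shorter ones, the tRNAs among them, were all at 0. These zeros give no measurement of these RNAs, so no comparison was made for them.

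Among the 15 longer members, the deposited values had been divided by a length shorter than the annotated one. In single-exon genes of 500 to 3000 bases, the lowest values were whole multiples of 1 fragment when the length was reduced by 262 to 283 bases, depending on the library (77.3% to 78.5% of values within 0.02 of a whole number). The estimated effective length of MT-CO1, of 1542 bases, was 1259 to 1280 bases. That of MT-ND3 (346 bases) was 80.3 to 95.3, that of MT-ND4L (297 bases) 46.2 to 56.7 and that of MT-ATP8 (207 bases) 6.5 to 8.6. These 3 estimates came from single-exon genes of similar length. A given number of fragments thus counts for far more FPKM in the 3 shortest messengers than in the long ones, and the estimate for MT-ATP8 rests on few genes of its size.

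**Figure D1:**
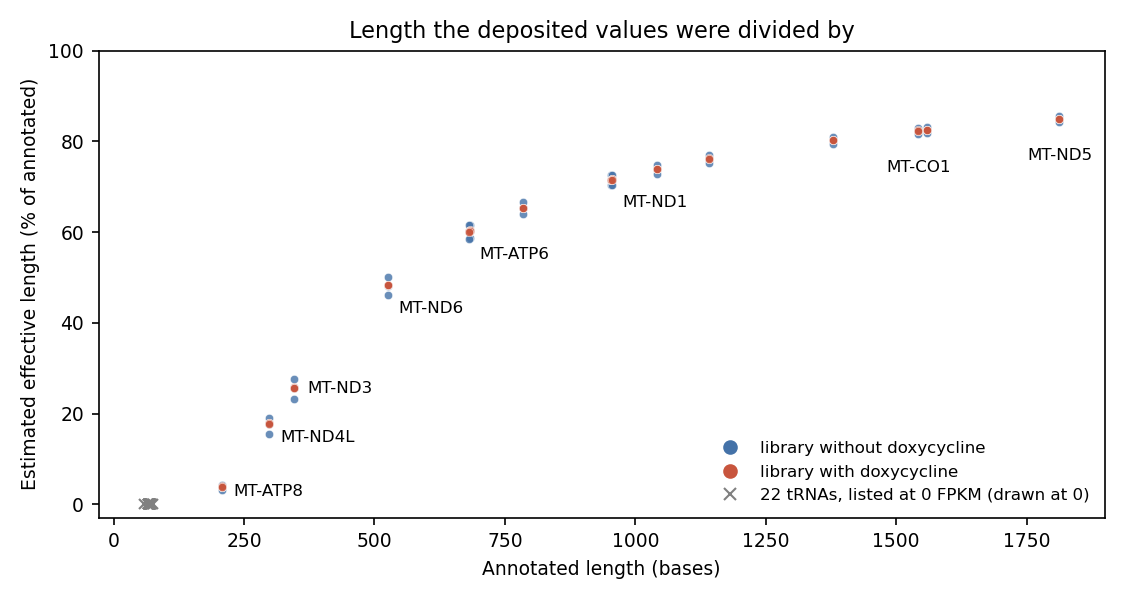
Estimated effective length as a percentage of the annotated length (vertical axis) against annotated length in bases (horizontal axis), for the 15 members above 0, 1 point per library (blue without, red with doxycycline). The share falls from over 80% in the longest messengers to under 10% in MT-ATP8, and the 22 tRNAs, listed at 0 FPKM, are drawn as crosses at 0.

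Together the members took 11.8%, 12.1% and 12.2% of the FPKM sum in the 3 untreated libraries and 12.3%, 12.4% and 12.4% in the 3 treated ones. The mean was 12.02% ± 0.219 (SD, n = 3) without and 12.3% ± 0.0411 (SD, n = 3) with doxycycline, and the groups did not overlap. In fragments, the share was smaller: 3.47% ± 0.0361 (SD, n = 3) without and 3.69% ± 0.246 (SD, n = 3) with doxycycline. Replicate 3 with doxycycline stood apart in that share, at 3.97% against 3.53% and 3.56% in the other libraries of its group. The 13 messengers held 11.0% ± 0.210 (SD, n = 3) of the FPKM sum without and 11.3% ± 0.0321 (SD, n = 3) with doxycycline, and the 2 rRNAs 0.997% ± 0.0143 (SD, n = 3) and 1.04% ± 0.0260 (SD, n = 3). Summed levels were not tested.

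In levels, MT-ATP8 was listed highest and MT-ND6 lowest of the 15 members in every library. The order per length without doxycycline ran from MT-ATP8 (10069 ± 319 FPKM, SD, n = 3) through MT-CO2, MT-CO3, MT-ND4L, MT-ATP6, MT-CO1, MT-ND4, MT-ND3, MT-RNR2, MT-CYB, MT-ND2, MT-ND1, MT-ND5 and MT-RNR1 to MT-ND6 (1281 ± 33.1 FPKM, SD, n = 3). Neighbours whose ranges overlapped were MT-ND4L and MT-ATP6, MT-CO1 and MT-ND4, and MT-ND4 and MT-ND3. MT-ATP8 and MT-ATP6 are known to lie on a shared messenger, as are MT-ND4L and MT-ND4. The shorter gene of each pair was nevertheless listed higher, MT-ATP8 at 10069 against MT-ATP6 at 5457 FPKM and MT-ND4L at 5636 against MT-ND4 at 4477 FPKM. The rRNAs were listed at 1505 ± 28.1 FPKM (SD, n = 3) for MT-RNR1 and 3772 ± 11.8 FPKM (SD, n = 3) for MT-RNR2 without doxycycline, below most messengers; the sources used here do not say whether the libraries were made from poly(A) RNA or by removing rRNA.

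**Figure D2:**
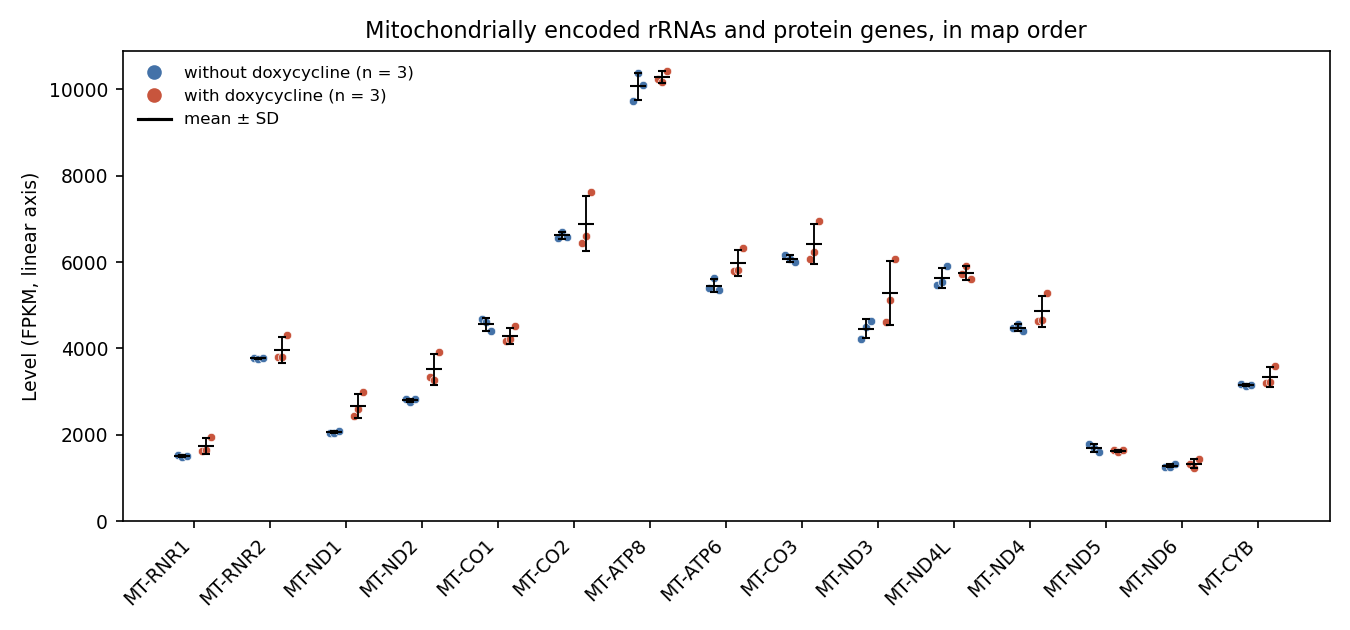
FPKM on a linear axis for the 2 rRNAs and 13 protein genes in map order, 1 point per library (blue without, red with doxycycline, 3 each), with mean and SD. MT-ND1 and MT-ND2 are the messengers whose red points lie farthest above the blue ones for their level, and replicate 3 with doxycycline is the highest point for 12 of the 15.

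Doxycycline-treated cells differed from untreated ones most in the first 2 messengers on the plus strand, which follow the rRNAs on the map. MT-ND1 and MT-ND2, both subunits of the membrane arm of complex I, rose by about 30.2% and 25.3% and were the only members past the threshold of the test. MT-CO1, the catalytic subunit of complex IV and the next messenger on the map, did not pass it as deposited, but was called lower when each library was scaled to an equal FPKM sum; it was not called with median-ratio factors. The other members, on either strand, did not pass the test under the scalings tried.

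All 14475 genes that reached 1 FPKM in 3 or more libraries were tested by limma on log2(FPKM + 1), with p-values adjusted over all of them by the Benjamini-Hochberg method and a threshold of 0.05. Among all genes tested, 3.69% were called higher and 4.77% lower with doxycycline. Among the 15 members tested, 2 were called higher and 0 lower. With p under 0.05 before adjustment, 4 members were higher and 0 lower, while 13.6% of all genes tested were higher and 14.3% lower. The groups did not overlap in 7 of the 15 members, against 34.5% of all genes tested. The median log2 change of the members was 0.08, against -0.0026 over all genes. As deposited, 13 of the 15 had a positive log2 change. Scaling each library to an equal FPKM sum over all genes moved every member by -0.054 on the log2 scale, and scaling to an equal sum over the 13 messengers moved every member by -0.092, so the sign of a member this close to 0 depends on the scaling. Without replicate 3 with doxycycline, the median of the members was 0.0256. Scaling to the messengers' sum moved the calls over all genes from 534 higher and 691 lower to 327 higher and 1129 lower.

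Complex I holds the largest group of members. MT-ND1 (chrM:3307-4262, plus strand) was at 2050.2, 2036 and 2080.4 FPKM in the untreated replicates 1, 2 and 3 and at 2444, 2605 and 2982 FPKM in the treated ones, and values below follow the same order. All 3 treated libraries were above all 3 untreated ones, and replicate 3 was the highest. The log2 change was 0.38 (SE 0.09, 95% interval 0.18 to 0.57), with a limma adjusted p of 0.031. MT-ND2 (chrM:4470-5511, plus strand) was at 2825, 2762 and 2823 FPKM without and 3349.7, 3270.1 and 3917 with doxycycline, again with no overlap and replicate 3 highest. Its log2 change was 0.32 (SE 0.08, 95% interval 0.13 to 0.51), with a limma adjusted p of 0.0485.

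Both calls were close to the threshold. Leaving out 1 library at a time, the limma log2 change of MT-ND1 ranged from 0.295 to 0.439 and its adjusted p from 0.00977 to 0.127, with the call kept in 2 of 6 fits. It was lost without replicate 1, 2 or 3 of the untreated group (adjusted p 0.094, 0.127 and 0.0841) and without replicate 2 of the treated group (0.0774). For MT-ND2, the limma log2 change ranged from 0.24 to 0.37 and the adjusted p from 0.00993 to 0.178. Its call was kept only without replicate 3 with doxycycline, the library with the highest values, where the limma adjusted p was 0.00993; it was lost without untreated replicate 1, 2 or 3 (0.12, 0.178 and 0.12) and treated replicate 1 or 2 (0.0709 and 0.0781). Without that same replicate 3, MT-ND1 had a log2 change of 0.295 with a limma adjusted p of 0.00977.

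The remaining complex I members did not pass the test. MT-ND3 was at 4212, 4496 and 4644 FPKM without and 4612, 5132 and 6077 with doxycycline, so that the lowest treated library lay below the highest untreated one. The log2 change of MT-ND3 was 0.24 (95% interval 0.00 to 0.47, limma adjusted p = 0.171). It was 0.13 without treated replicate 3 and 0.329 without treated replicate 1, and MT-ND3 was not called in either fit. MT-ND4L was at 5472, 5538 and 5899 FPKM without and 5719.99, 5912 and 5609 with doxycycline, with overlapping groups. MT-ND4, which follows it on the same messenger, was at 4471, 4559.96 and 4399.7 FPKM without and 4642, 4666 and 5281 with doxycycline, with no overlap and replicate 3 again highest. The log2 change was 0.12 for MT-ND4 (95% interval -0.06 to 0.29, limma adjusted p = 0.357) and 0.03 for MT-ND4L (95% interval -0.13 to 0.19, limma adjusted p = 0.829).

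MT-ND5, the longest messenger and a proton-pumping subunit at the far end of the membrane arm, was at 1777, 1697 and 1612 FPKM without and 1644, 1609 and 1646 with doxycycline. Its groups overlapped, and replicate 3 with doxycycline did not stand apart here. MT-ND5 had a log2 change of -0.05 (95% interval -0.21 to 0.11, limma adjusted p = 0.679), so the intervals of MT-ND1 and MT-ND5, both of complex I, did not overlap.

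MT-ND6 is the only messenger on the minus strand (chrM:14149-14673) and comes from the other precursor. It was at 1261, 1263 and 1319 FPKM without and 1319, 1229 and 1448 with doxycycline, with overlapping groups. The log2 change was 0.05 (95% interval -0.13 to 0.24, limma adjusted p = 0.718). The sources used here do not give the strandedness, so reads of MT-ND6 cannot be told apart from reads of precursor RNA of the opposite strand over the same bases. With 1 messenger and no measured tRNA on the minus strand, the strands were compared by this gene alone, within libraries. The ratio of MT-ND6 to MT-CYB, a neighbour on the plus strand, was 0.396, 0.405 and 0.419 without and 0.412, 0.382 and 0.402 with doxycycline. That of MT-ND6 to MT-ND5, its other neighbour, was 0.710, 0.744 and 0.819 without and 0.803, 0.764 and 0.879 with doxycycline. Both ratios overlapped between the groups. Other messengers of the plus strand were not set against MT-ND6, so these ratios do not stand for the whole strand.

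Cytochrome b, MT-CYB, is the single mitochondrially encoded subunit of complex III. It was at 3184, 3121 and 3148.5 FPKM without and 3202, 3213 and 3604 with doxycycline. The groups did not overlap, but the gap between them was small beside the height of replicate 3 with doxycycline. That gave a log2 change of 0.08 (95% interval -0.09 to 0.25, limma adjusted p = 0.519).

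Complex IV had no member past the threshold as deposited. MT-CO1, the catalytic subunit that carries heme and copper, was at 4678, 4609 and 4397 FPKM without and 4173, 4209 and 4512 with doxycycline, with replicate 3 of the treated group above replicate 3 of the untreated group. MT-CO1 had a log2 change of -0.09 (95% interval -0.25 to 0.07, limma adjusted p = 0.470). MT-CO2, which takes electrons from cytochrome c, was at 6565, 6706 and 6585 FPKM without and 6439, 6603 and 7616 with doxycycline. MT-CO3, the third core subunit, was at 6156, 6081 and 5997 FPKM without and 6081, 6223 and 6951 with doxycycline. In both, the treated group spanned the untreated one or overlapped it, with log2 changes of 0.05 (95% interval -0.13 to 0.24, limma adjusted p = 0.718) and 0.08 (95% interval -0.09 to 0.25, limma adjusted p = 0.553).

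Complex V has 2 members, both in the membrane part of the ATP synthase. MT-ATP6, the subunit that forms the proton path, was at 5404, 5624 and 5343 FPKM without and 5795, 5823 and 6317 with doxycycline, with no overlap. For MT-ATP6 the log2 change was 0.13 (95% interval -0.03 to 0.29, limma adjusted p = 0.268). MT-ATP8 was at 9735, 10371 and 10103 FPKM without and 10248, 10165 and 10432 with doxycycline, with overlapping groups and a log2 change of 0.03 (95% interval -0.12 to 0.18, limma adjusted p = 0.808).

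The rRNAs lie before MT-ND1 on the same strand. MT-RNR1, the small-subunit rRNA, was at 1534, 1478 and 1502 FPKM without and 1619, 1656 and 1955 with doxycycline, with no overlap between groups. For MT-RNR1 the log2 change was 0.21 (95% interval 0.01 to 0.40), with an unadjusted p of 0.0406 and a limma adjusted p of 0.158. Without treated replicate 3 it was 0.122 (limma adjusted p = 0.0804). MT-RNR2, the large-subunit rRNA, was at 3771, 3760.3 and 3784 FPKM without and 3800.4, 3793 and 4301 with doxycycline; its groups did not overlap, though 2 of the treated libraries were close to the untreated ones. For MT-RNR2 the log2 change was 0.07 (95% interval -0.10 to 0.24, limma adjusted p = 0.596).

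Because replicate 3 of the treated group was the highest library in 12 members at once, the members were also compared with each other within libraries. The ratio of MT-ND1 to MT-CO1 was 0.438, 0.442 and 0.473 without and 0.586, 0.619 and 0.661 with doxycycline. That of MT-ND2 to MT-CO1 was 0.604, 0.599 and 0.642 without and 0.803, 0.777 and 0.868 with doxycycline. Neither ratio overlapped between the groups, and the gap was larger than the range within either group. MT-ND1 and MT-ND2 kept nearly the same ratio to each other, 0.733 ± 0.0067 (SD, n = 3) without and 0.763 ± 0.0334 (SD, n = 3) with doxycycline, with overlapping groups. The ratio of MT-RNR1 to MT-RNR2 was 0.407, 0.393 and 0.397 without and 0.426, 0.437 and 0.455 with doxycycline, which did not overlap, while that of MT-ATP6 to MT-CO3 did. The ratios of MT-ND1 to MT-ND5, MT-ND4 to MT-ND5 and MT-RNR2 to MT-ND1 did not overlap either. These pairs were picked with the levels known, so the ratios are a description without a test.

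**Figure D3:**
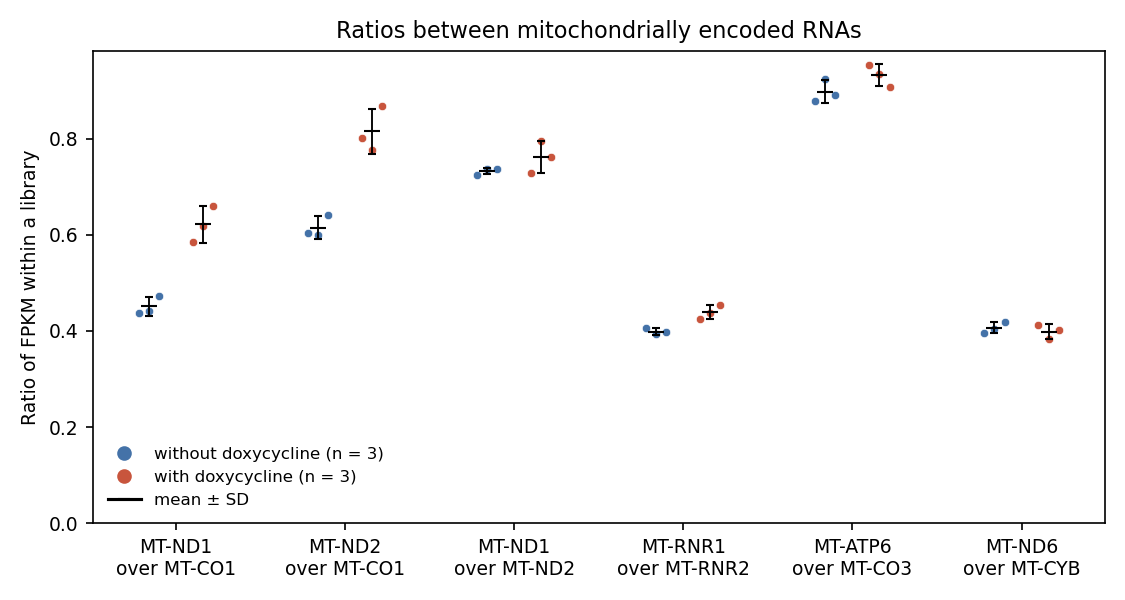
Ratio of the FPKM of 2 members within each library (vertical axis, starting at 0), for 6 pairs, with 3 libraries without (blue) and 3 with doxycycline (red), mean and SD. MT-ND1 over MT-CO1, MT-ND2 over MT-CO1 and, by a smaller gap, MT-RNR1 over MT-RNR2 lie higher in all treated libraries. MT-ND1 over MT-ND2, MT-ATP6 over MT-CO3 and MT-ND6 over MT-CYB overlap.

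The same comparison within limma, with each library scaled to an equal sum over the 13 messengers, gave a log2 change of 0.28 for MT-ND1 (SE 0.045, adjusted p = 0.00874), 0.23 for MT-ND2 (SE 0.0441, adjusted p = 0.0163) and -0.18 for MT-CO1 (SE 0.0391, adjusted p = 0.0257). As a share of the messengers' FPKM sum, MT-ND1 went from 3.52% ± 0.0566 (SD, n = 3) to 4.29% ± 0.198 (SD, n = 3), MT-ND2 from 4.81% ± 0.103 (SD, n = 3) to 5.63% ± 0.255 (SD, n = 3) and MT-CO1 from 7.82% ± 0.280 (SD, n = 3) to 6.91% ± 0.102 (SD, n = 3). Shares add up to a whole, so a rise in some members lowers the share of the others. Without doxycycline, the 3 shortest messengers held 17.3% (MT-ATP8), 9.66% (MT-ND4L) and 7.63% (MT-ND3) of that sum. Their FPKM rest on the shortest effective lengths, so the sum carries that uncertainty. MT-CO1 was also called lower by limma with equal FPKM sums over all genes (log2 change -0.14, adjusted p = 0.0343) or over nuclear genes (-0.13, adjusted p = 0.0374). It was not called with median-ratio factors (-0.09, limma adjusted p = 0.365) or after rescaling to fragments (-0.08, limma adjusted p = 0.480). Equal sums over all genes or over nuclear genes also moved the median log2 change of all tested genes, from -0.0026 to -0.0504 and -0.0456. With them limma called 454 genes higher and 887 lower, and 476 higher and 860 lower. MT-ND5 stood at -0.14 relative to the messengers' sum, with a limma adjusted p of 0.130, and was not called.

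**Figure D4:**
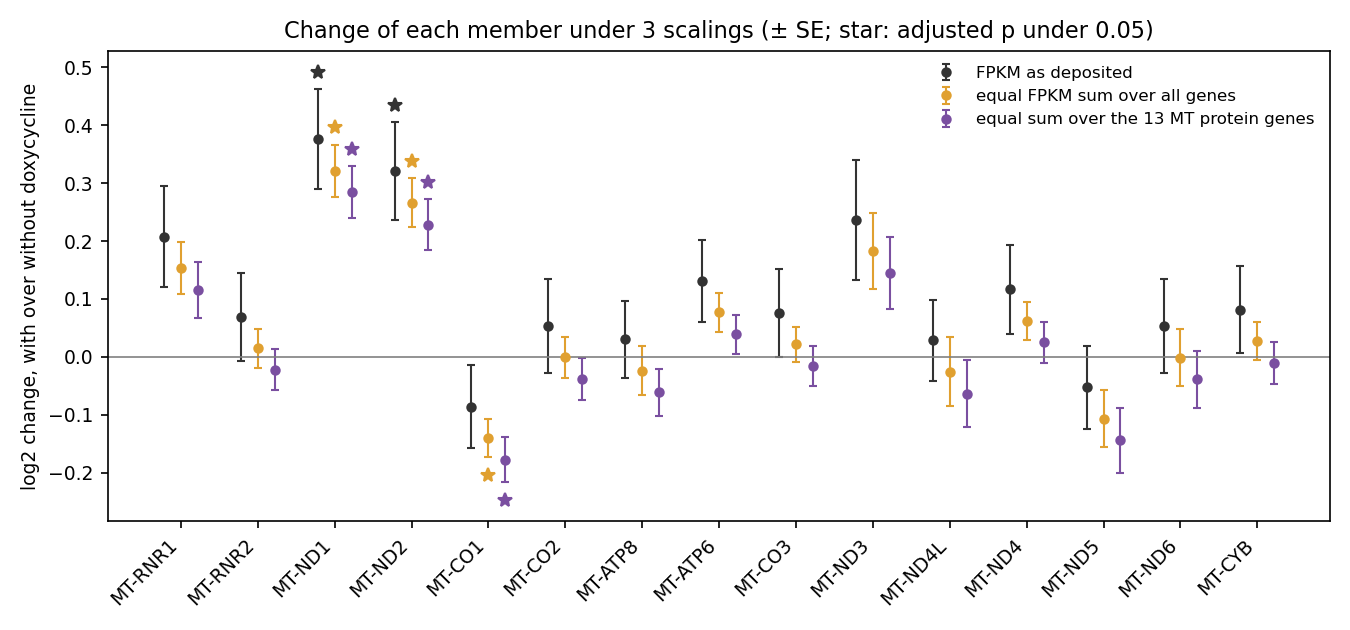
Log2 change with over without doxycycline (vertical axis) with its SE for the 15 members in map order, as deposited (black), with equal FPKM sums over all genes (orange) and with equal sums over the 13 messengers (purple), a star marking a limma adjusted p under 0.05. MT-ND1 and MT-ND2 carry a star under all 3, MT-CO1 carries one, below 0, under the latter 2, and most other members lie near 0.

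Copies of mitochondrial genes in nuclear DNA are close enough in sequence for fragments of the members to be listed under another name. Of 408 such copies in the table, 13 had a mean above 1 FPKM, and the 6 highest all lie on chromosome 1. MTATP6P1 (chr1:633696-634376) differs from MT-ATP6 at 10 of 681 bases and was listed at 750.1 ± 25.6 FPKM (SD, n = 3) without and 819 ± 28.7 (SD, n = 3) with doxycycline, 12.8% to 14.4% of MT-ATP6 in the same library. MTND2P28 (chr1:629640-630683) differs from MT-ND2 at 17 of 1042 aligned bases and was at 297 ± 13.8 FPKM (SD, n = 3) without and 349 ± 10.7 (SD, n = 3) with doxycycline, 9.22% to 11.0% of MT-ND2. MTCO1P12 was at 88.2 ± 5.71 FPKM (SD, n = 3) and 85.3 ± 2.89 (SD, n = 3), 1.78% to 2.02% of MT-CO1.

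The log2 change of each of these copies had the sign of its member's. The log2 change was 0.23 for MTND2P28 (limma adjusted p = 0.0816), 0.13 for MTATP6P1 (limma adjusted p = 0.289) and -0.05 for MTCO1P12 (limma adjusted p = 0.746), none of which passed the test. MTND1P23, a 372-base copy of part of MT-ND1 listed at under 1% of its level, was called higher: 8.26 ± 1.27 FPKM (SD, n = 3) without and 12.7 ± 1.87 (SD, n = 3) with doxycycline, a log2 change of 0.57 with a limma adjusted p of 0.0365. That call was kept in 1 of 6 fits leaving out a library, with adjusted p from 0.0284 to 0.126. MTCO3P12 and MTCO2P12, at means of 9.82 and 8.17 FPKM, were not called. Whether fragments listed under a copy came from the copy or from the member cannot be told apart with gene-level values. With the copies' fragments added to their members, the log2 change was 0.376 for MT-ND1 (limma adjusted p = 0.031) and 0.313 for MT-ND2 (limma adjusted p = 0.0484), an alternative added after the values were seen.

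**Figure D5:**
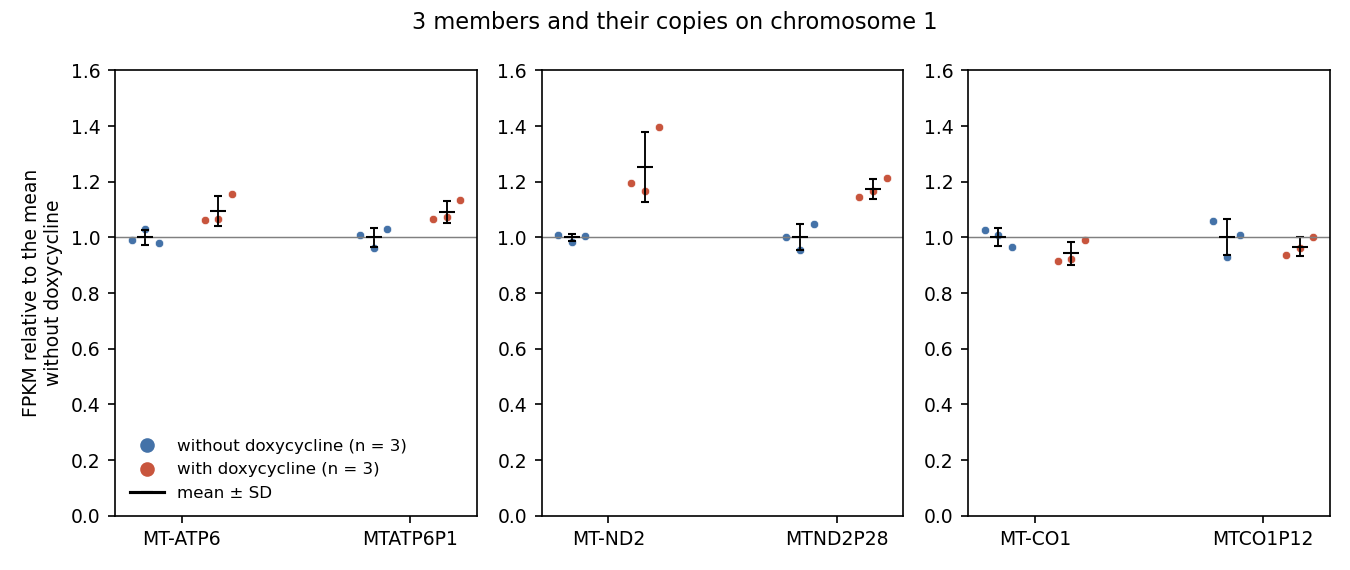
FPKM relative to the mean without doxycycline (vertical axis, starting at 0) for MT-ATP6, MT-ND2 and MT-CO1 and their copies on chromosome 1, 1 point per library with mean and SD. Member and copy shift in the same direction in each panel, and the copies' red points spread less than those of MT-ATP6 and MT-ND2.

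The proteins that transcribe mitochondrial DNA, process its RNA and act as translation factors are encoded in the nucleus. Of 80 such genes tested, 4 were called higher and 1 lower by limma, with a median log2 change of 0.05. The share called higher, 5.0%, was near the 3.69% over all genes tested, of which 4.77% were called lower. TFAM, the factor that packages mitochondrial DNA and starts its transcription, was at 30.1, 32.7 and 33.4 FPKM without and 44.6, 44.7 and 40.3 with doxycycline, with no overlap and a log2 change of 0.42 (SE 0.08, limma adjusted p = 0.0208). It was the 1 gene called of 8 in the transcription list. In the replication list, 0 of 14 were called by limma, and p before adjustment was under 0.05 for 2 higher and 2 lower genes; the smallest p-values there were those of PRIMPOL, a primase and polymerase (log2 change -0.37, limma adjusted p = 0.1005), and POLG, the catalytic subunit of the mitochondrial DNA polymerase (0.24, limma adjusted p = 0.125).

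FASTKD5, which takes part in processing messengers that are not flanked by tRNAs, was called higher in the RNA processing list of 12: 11.8, 12.5 and 12.4 FPKM without and 15.7, 15.6 and 16.1 with doxycycline, a log2 change of 0.34 (limma adjusted p = 0.0343). NGRN, a protein needed for the level of MT-RNR2, was called higher in the stability list of 10, at 52.6, 49.3 and 50.3 FPKM without and 58.6, 65.9 and 76.5 with doxycycline (log2 change 0.39, limma adjusted p = 0.046). RPUSD3, a pseudouridine synthase, was the 1 gene called lower, in the modification list of 21, at 20.8, 20.9 and 19.8 FPKM without and 14.8, 12.8 and 16.5 with doxycycline (log2 change -0.46, limma adjusted p = 0.0282). MTRF1L, which ends translation at stop codons in mitochondria, was called higher among 15 translation factors, at 11.98, 12.2 and 13.4 FPKM without and 15.2, 16.5 and 17.4 with doxycycline (log2 change 0.36, limma adjusted p = 0.0433).

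All 5 had groups that did not overlap, as did 34.5% of all genes tested, but the 5 were picked by the same values. All 5 calls were lost in most fits that left out 1 library. Such fits hold fewer libraries and called 242 to 1000 of all genes, against 1225 with all 6. The log2 change of FASTKD5 ranged only from 0.318 to 0.355 in them. Over the 6 fits that left out a library, TFAM kept its call in 2 (limma adjusted p 0.0173 to 0.0838), NGRN in 1 (0.0354 to 0.156) and RPUSD3 in 1 (0.0199 to 0.105). FASTKD5 (0.0535 to 0.123) and MTRF1L (0.0531 to 0.158) kept it in 0 of 6, while CAPG was called in 6 of 6.

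The members are assembled with nuclear-encoded subunits of the same complexes. Of 73 such subunits tested, 4 were called higher and 3 lower by limma, 5.48% and 4.11% against 3.69% and 4.77% of all genes tested, so both shares were near the background. Before adjustment, limma p was under 0.05 for 27 higher and 4 lower subunits. These were 37.0% and 5.48%, against 13.6% and 14.3% of all genes tested, so the higher share was well above the background. The log2 change was positive in 61 subunits and negative in 12, against 7175 and 7299 of all genes tested. The median log2 change of the subunits was 0.19, against 0.08 in the members. The subunits' unadjusted shares, signs and medians were taken from all libraries as deposited, and not under other scalings or without a library. The limma count called higher was 13 with equal FPKM sums over nuclear genes, 9 with equal sums over all genes, 9 with a filter of 5 FPKM and 8 with median-ratio factors. By complex, the median was 0.23 over 37 nuclear subunits of complex I, 0.13 over 9 of complex III, 0.19 over 11 of complex IV and 0.19 over 16 of complex V. Those called higher were NDUFC2 (log2 change 0.41, limma adjusted p = 0.0302), NDUFA13 (0.36, limma adjusted p = 0.0419) and NDUFA6 (0.35, limma adjusted p = 0.0493), accessory subunits of complex I, and ATP5MC3 (0.40, limma adjusted p = 0.0315), a gene for the ring subunit of the ATP synthase. Those called lower were COX8A of complex IV (-0.47, limma adjusted p = 0.0252), UQCRFS1, the iron-sulfur subunit of complex III (-0.39, limma adjusted p = 0.047), and NDUFB1 of complex I (-0.46, limma adjusted p = 0.0477). These 7 were named after their values were seen. Leaving out 1 library at a time, 0 to 5 were called higher and 0 to 3 lower.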

How the data were processed

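RNA sequencing libraries from HCT116 cells (3 without and 3 with doxycycline) were grouped by their titles. The authors deposited 1 table with 1 value per gene and library, treated here as FPKM from its behaviour because the header names no unit. The submitters' processing notes name kallisto, RSEM, Cufflinks, STAR, BWA and Bowtie, with no version or role, and the build hg19; the table's loci are those of GRCh38, since 39321 of 39331 identifiers found in GENCODE 29 had its locus once 1 was added to the start. The sources used here give neither strandedness nor read length.

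Genes reaching 1 FPKM in 3 or more libraries entered limma (version 3.58.1, R 4.3.3) on the log2(FPKM + 1) scale (trended, robust empirical Bayes, group only, two-sided, Benjamini-Hochberg over 14475 genes, threshold 0.05). Fold changes are on that log2 scale, which understates changes of low genes. FPKM is relative, so a class of RNA that takes more of a library lowers the rest. Depth, and the effective lengths of most members, were estimated from the steps of low values in single-exon genes of 500 to 3000 bases. The share of whole multiples was taken over values of up to 20 fragments. Effective lengths of MT-ATP8, MT-ND4L, MT-ND3 and MT-ND6 were instead estimated from single-exon genes of similar length. FPKM was not turned into counts for a count test. The fit was tested on simulated data. Members and gene lists were chosen with earlier results of these data known. Named genes were all 15 longer members, CAPG, per pathway list the called genes (up to 4, or the 2 of smallest p), and the 6 copies of highest mean. Alternatives were another pseudocount, filters, scalings, the variance model, a replicate block and leaving out each library.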

Additional observations from a re-analysis of the deposited data

How the results depend on the processing

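The 2 members called higher (MT-ND1 and MT-ND2) were 2 with a pseudocount of 0.1, a filter of 5 FPKM, each scaling, values rescaled to fragments and the copies added, the last 2 chosen after seeing the data. They were 0 with no filter (limma adjusted p 0.108 and 0.135), 0 with plain empirical Bayes (0.0595 and 0.0834) and 0 to 2 leaving out 1 library. The 0 members called lower became 1, MT-CO1, with equal FPKM sums over nuclear genes, all genes or the 13 messengers. Libraries with the same replicate number showed no shared deviation (correlations of -0.043, 0.009 and -0.023, against -0.086 to 0.102 for different numbers). These values cannot show whether the cultures were paired. With a replicate block, 211 of all genes were called against 1225, and 0 members were called higher or lower. In that fit, 0 pathway and 0 partner genes (the nuclear subunits) were called in either direction.

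Over all genes, limma called 153 with no filter and 242 to 1000 leaving out 1 library. Pathway genes called higher (4) were 0 with no filter, 2 with equal sums over all genes, 1 over the 13 messengers, 2 with plain empirical Bayes and 0 to 1 leaving out 1 library; those called lower (1) were 0 with no filter, 2 with either of these sums and 0 to 1 leaving out 1 library. Partner genes called higher (4) were 0 with no filter, 9 with a filter of 5 FPKM, 13 with equal sums over nuclear genes, 9 over all genes, 8 with median-ratio factors, 0 with plain empirical Bayes and 0 to 5 leaving out 1 library; those called lower (3) were 0 with no filter, 1 with plain empirical Bayes and 0 to 3 leaving out 1 library. The members' share of the library was 12.02% and 12.3% of the FPKM sum without and with doxycycline but 3.47% and 3.69% of fragments.

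Signs of uncalled members turned with scaling. With equal sums over the 13 messengers, the log2 change was -0.01 for MT-CYB, -0.016 for MT-CO3, -0.023 for MT-RNR2, -0.039 for MT-CO2 and MT-ND6, -0.061 for MT-ATP8 and -0.063 for MT-ND4L. With equal sums over all genes it was -0.001 for MT-CO2 and MT-ND6, -0.024 for MT-ATP8 and -0.026 for MT-ND4L, and over nuclear genes -0.018 for MT-ATP8 and -0.02 for MT-ND4L. Without replicate 3 with doxycycline it was -0.022 for MT-CO2 and -0.009 for MT-ND6, the lowest of ranges that reached 0.1 and 0.109 leaving out 1 library. The scalings moved every member by one shift, -0.092, -0.054 and -0.049 in the order given, so values near 0 turned by construction; for the left-out library the cause was not tested. The longer members each had over 1000 estimated fragments per library. The width of their intervals comes from the spread between 3 libraries per group, combined by empirical Bayes with the spread of other genes. The tRNAs were not measured.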
